A study of Mus musculus with 12 samples.

Results

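Signalling by interleukin-6 (IL-6) and its relatives to the transcription factor STAT3 was followed through 10 genes in mouse skin RNA: the ligand genes Il6 and Osm, the receptor genes Il6ra, Osmr, Lifr and Il6st, the kinase genes Jak1 and Jak2, Stat3 itself and its feedback inhibitor Socs3. The genes were picked by symbol, with earlier results of these data known, and all 10 were found among the 33539 genes of the count table and passed the filter on low counts that left 18147 genes to test. Polyadenylated RNA was sequenced in 12 libraries: 4 from skin of Tcn2-deficient mice after imiquimod (Tcn2-/- IMQ), 5 from skin of wild-type mice after imiquimod (IMQ) and 3 from skin of wild-type mice without it (control). Imiquimod activates Toll-like receptors and is used to set off a psoriasis-like disease of mouse skin, and Tcn2 encodes transcobalamin, which carries vitamin B12 into cells. The series title places TCN2 upstream of interleukin-1β and STAT3, and the design text sets Tcn2-deficient against wild-type imiquimod skin. The labels give no strain, age, dose or time, do not say how Tcn2 was disrupted, and hold no Tcn2-/- skin without imiquimod, so an effect of the genotype alone cannot be told apart from an effect on the response to imiquimod.

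Most ligands of this family bind cell-surface receptors that share the signalling chain gp130, the product of Il6st. IL-6 reaches gp130 through its own receptor chain, encoded by Il6ra, while oncostatin M (Osm) uses a dimer of gp130 with the chain of Osmr, and leukaemia inhibitory factor one with the chain of Lifr. Bound receptors activate Janus kinases, which phosphorylate STAT3, and STAT3 induces Socs3, whose product binds gp130 and the kinases and shuts the signal off. In psoriasis-like mouse skin STAT3 is active in keratinocytes, and oncostatin M, made by neutrophils, macrophages and T cells, acts on keratinocytes through the chain of Osmr. Transcript counts measure neither phosphorylated STAT3 nor cytokine protein.

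None of the 10 genes changed past the threshold of an adjusted p of 0.05 in any of the 3 comparisons (edgeR's quasi-likelihood test, Benjamini-Hochberg adjustment over all 18147 genes). In Tcn2-/- IMQ against IMQ skin the log2 change was negative for 9 of the 10, all but Il6, with a median of −0.44, where the median over all genes was 0.01. Of all genes 49.2% had a negative change there. Osm, Il6ra and Jak2 were lower in every Tcn2-/- IMQ library than in every IMQ library, as were 3.18% of all genes tested. In IMQ against control skin the change was positive for 8 of the 10, with a median of 0.43. Over all genes 49.6% were positive there, with a median of −0.004. Osm was higher in every IMQ library than in every control library, as were 6.79% of all genes tested.

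Several properties of the libraries bear on these values. Totals ran from 16182324 to 18503487 counts. Tcn2 itself had 5.59, 1.91, 5.44 and 4.14 CPM (the count scaled to library size) in Tcn2-/- IMQ libraries against 67.0 to 141 CPM in IMQ libraries (log2 change −4.72, SE 0.505, edgeR adjusted p = 0.00695). Tcn2-/- IMQ replicate 2 and control replicate 1 stood apart from the rest. They had the highest mitochondrial shares (8.08% and 10.3% of counts) and the lowest positions on the first principal component, and each was the lowest library of its group for 9 of the 10 genes. The 10 genes together summed to 607 CPM in Tcn2-/- IMQ replicate 2 against 932 to 1537 CPM in the others of its group, and to 550 CPM in control replicate 1 against 1261 and 1330 CPM. Xist marked IMQ replicate 1 and control replicates 2 and 3 as female, and the other 9 libraries had Y-linked reads. The only male control was thus replicate 1, which stood apart, the only female IMQ library was replicate 1, and every Tcn2-/- IMQ library was male. Fits with sex as a covariate therefore cannot tell sex apart from what else set those libraries off. The sample titles carry the word muscle while the tissue is given as skin. Summed CPM of 14 keratinocyte markers was 12138 to 53450 in Tcn2-/- IMQ, 24566 to 38196 in IMQ and 9661 to 10774 in control libraries, and that of 29 skeletal muscle markers was 11109 to 43025, 3804 to 9426 and 15728 to 16669. Muscle marker sums did not overlap between IMQ and the other groups, so muscle content and group cannot be told apart there. The Tcn2-/- IMQ group was not uniform. In its replicates 1 to 4 keratinocyte markers summed to 12138, 13856, 53450 and 47100 CPM. Stress keratins (4 genes) summed to 1452, 1439, 18534 and 14067 CPM there. They summed to 5367 to 13063 CPM in IMQ and 791 to 1028 CPM in control libraries. Replicates 1 and 2 thus differed from replicates 3 and 4 in these sums, and means of the group cover both. Nothing in the labels says whether replicates came from separate animals, so p-values measure the spread between these libraries, part of which may be technical.

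On the level scale per length (CPM per kilobase of exon, a length that only allows genes to be ordered), Jak1, Il6st and Stat3 had the highest levels in every group and Osm and Il6 the lowest. In IMQ skin the order was Jak1 (41.4 ± 5.69, SD, n = 5), Il6st (35.4 ± 15.3), Stat3 (26.04 ± 2.79), Socs3 (19.7 ± 6.78), Jak2 (18.5 ± 3.26), Lifr (11.3 ± 2.29), Il6ra (9.79 ± 1.72), Osmr (7.79 ± 1.57), Osm (2.04 ± 1.80) and Il6 (1.10 ± 0.603). Each of these overlapped its neighbour in the order by library range, except that every Osmr value lay above every Osm value. In Tcn2-/- IMQ skin Jak1 stood at 32.2 ± 12.3 and Il6st at 30.2 ± 14.5 CPM per kilobase (n = 4), and Il6ra, at 4.48 ± 2.23, came below Osmr, at 6.40 ± 2.52. In control skin Il6ra stood at 10.7 ± 6.87 and Osmr at 6.10 ± 2.04 CPM per kilobase (n = 3). The ranges of Il6ra and Osmr overlapped in every group.

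**Figure D1:**
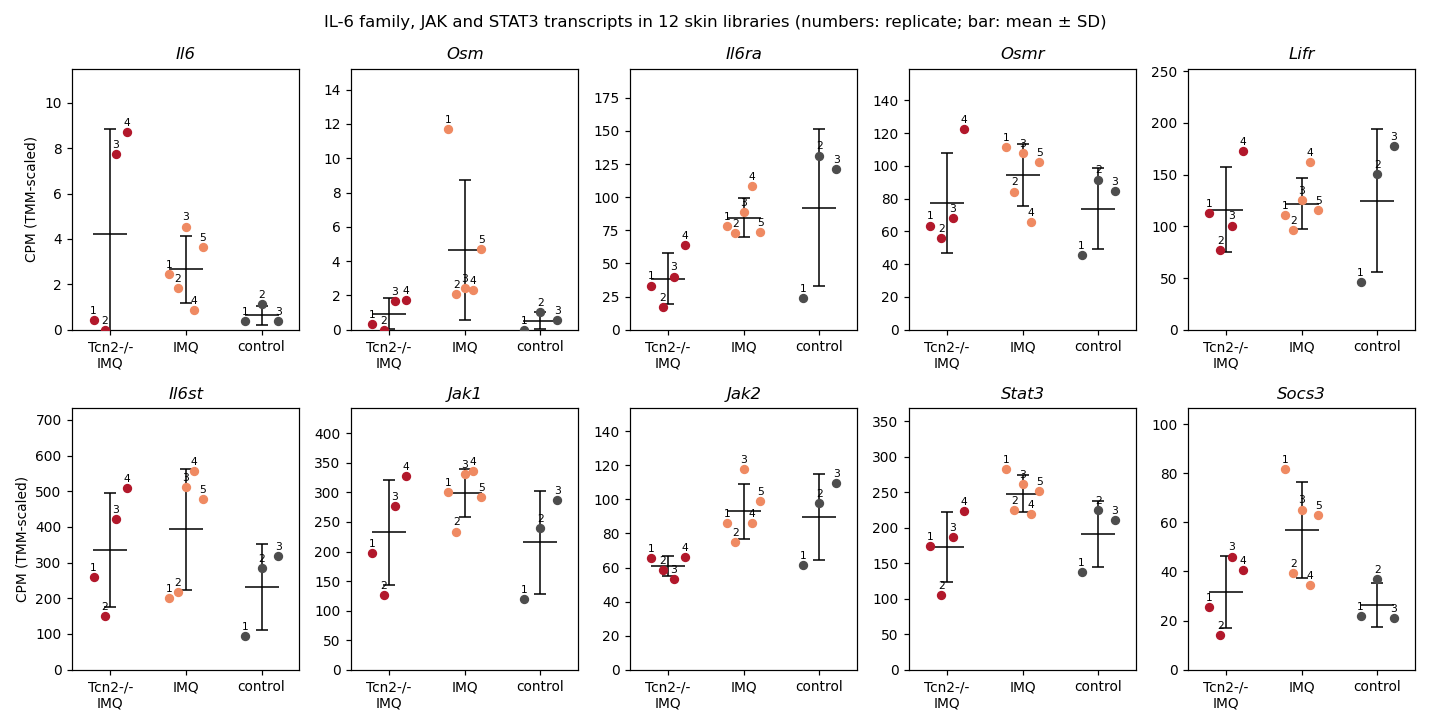
Level of each of the 10 genes in CPM (vertical axis, starting at 0) in Tcn2-/- IMQ, IMQ and control libraries; points are libraries numbered by replicate and bars are the mean ± SD. The 4 Tcn2-/- IMQ libraries lie below the 5 IMQ libraries for Osm, Il6ra and Jak2, and Tcn2-/- IMQ replicate 2 and control replicate 1 are at or near the bottom of their groups.

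Of the ligands, Il6 (chromosome 5, 30218112 to 30224979, plus strand, GRCm39) encodes IL-6 and was a low transcript. It had 7, 0, 125 and 149 counts in Tcn2-/- IMQ libraries, 42, 31, 75, 14 and 61 counts in IMQ libraries and 7, 20 and 7 counts in control libraries. In CPM this was 0.42, 0, 7.73 and 8.69 in Tcn2-/- IMQ, 2.45, 1.82, 4.54, 0.85 and 3.66 in IMQ, and 0.38, 1.12 and 0.40 in control libraries. Within the Tcn2-/- IMQ group replicates 3 and 4 were higher than any IMQ library and replicates 1 and 2 were lower than any IMQ library, so the Tcn2-/- IMQ group spanned the IMQ group on both sides. The 0 counts of Tcn2-/- IMQ replicate 2 allow up to 3 counts by counting error alone. The log2 change was 0.66 in Tcn2-/- IMQ against IMQ (95% interval −1.54 to 2.86, adjusted p = 0.823, edgeR) and 2.71 in Tcn2-/- IMQ against control (−0.12 to 5.55, adjusted p = 0.419). In a fit that included a muscle score (the mean log2 CPM of muscle markers) the change against IMQ was 2.09 (adjusted p = 0.887). Replicates 3 and 4 were also the high ones for macrophage and monocyte markers, whose 15 genes summed to 1429, 374, 4784 and 4500 CPM in the 4 Tcn2-/- IMQ libraries. The same replicates were high for 14 keratinocyte markers (12138, 13856, 53450 and 47100 CPM) and for 4 stress keratins (1452, 1439, 18534 and 14067 CPM). In bulk tissue fewer cells of a type and less RNA per cell cannot be told apart. The part of macrophage or keratinocyte content in the Il6 values was not tested.

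Osm (chromosome 11, 4186420 to 4191026, plus strand) encodes oncostatin M. It had 0.36, 0, 1.67 and 1.75 CPM in Tcn2-/- IMQ libraries against 11.7, 2.06, 2.42, 2.30 and 4.68 CPM in IMQ libraries and 0, 1.01 and 0.57 CPM in control libraries. Every IMQ library was higher than every library of the other groups, while Tcn2-/- IMQ and control libraries overlapped. These levels rest on 63 counts over the 4 Tcn2-/- IMQ libraries, 392 over the 5 IMQ libraries and 28 over the 3 control libraries, and 201 of the 392 came from IMQ replicate 1. The log2 change was −2.29 in Tcn2-/- IMQ against IMQ (SE 1.04, 95% interval −4.55 to −0.02, unadjusted p = 0.0479, adjusted p = 0.419, edgeR) and 3.12 in IMQ against control (SE 1.23, 0.44 to 5.81, unadjusted p = 0.026, adjusted p = 0.248). Genes lower in every Tcn2-/- IMQ library than in every IMQ library made up 3.18% of all genes tested, and genes higher in every IMQ than in every control library 6.79%. Without IMQ replicate 1 the changes were −1.58 (adjusted p = 0.579) and 2.42 (adjusted p = 0.374). That library is also the only IMQ library from a female, so sex and other traits of that library cannot be told apart in the IMQ group. In the fit with muscle score the Osm changes were −0.52 (adjusted p = 0.963) and 1.64 (adjusted p = 0.76), and with sex they were −1.47 (adjusted p = 0.645) and 4.74 (adjusted p = 0.115).

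Neutrophils are a source of oncostatin M. Their 16 markers summed to 357, 532, 1174 and 1557 CPM in Tcn2-/- IMQ libraries against 12898, 4327, 2684, 3195 and 3547 CPM in IMQ libraries and 122, 244 and 272 CPM in control libraries. IMQ libraries were highest for both, and IMQ replicate 1 highest of all. Within the IMQ group the orders otherwise differed, since replicate 2 had the second highest marker sum and the lowest Osm. The neutrophil surface marker gene Ly6g and the chemokine receptor gene Cxcr1 were at 0 in all Tcn2-/- IMQ and control libraries, where up to 3 and up to 6 of the 16 markers were at 0. Ly6g was also at 0 in IMQ replicates 3 and 4. Of the 14 markers tested, 14 had a negative log2 change in Tcn2-/- IMQ against IMQ (median −2.30, none past the threshold by edgeR, 10 at an unadjusted p below 0.05). Markers of the other named sources were also mostly negative there, at 14 of 15 for macrophages and monocytes (median −0.93) and 11 of 12 for T cells (median −1.52). In IMQ against control, where Osm was higher, 14 of the 15 and 2 of the 12 had a positive change. The parts of neutrophil, macrophage and T cell content in the Osm values were not tested.

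**Figure D2:**
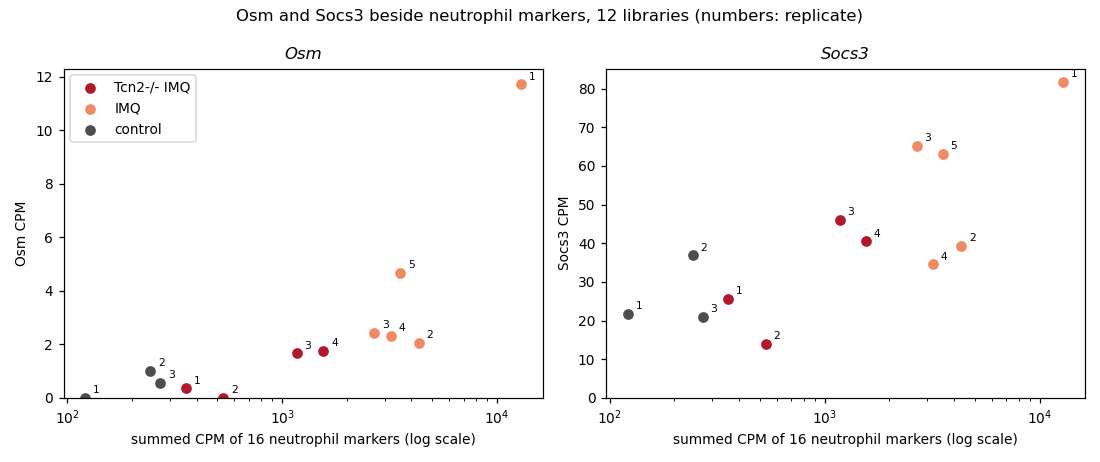
Osm (left) and Socs3 (right) in CPM on the vertical axis, starting at 0, against the summed CPM of 16 neutrophil marker genes on a log horizontal axis, 1 point per library numbered by replicate. IMQ replicate 1 is highest on every axis, and every IMQ library lies to the right of every Tcn2-/- IMQ library, which in turn lie to the right of every control library.

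Osm lies on the same chromosome as the disrupted gene, with a gap of 304.3 kb between Osm and Tcn2 (chromosome 11, 3867192 to 3882159, minus strand). Stat3 and Socs3 are also on chromosome 11, far from Tcn2. Among the 43 tested genes within 1000 kb of Tcn2, Osm included, 0 passed the threshold in any comparison, and their median log2 change was 0.15 in Tcn2-/- IMQ against IMQ, −0.06 in IMQ against control and 0.12 in Tcn2-/- IMQ against control.

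Il6ra (chromosome 3, 89771366 to 89820503, minus strand) encodes the chain that binds IL-6 itself. It had 33.4, 17.4, 40.2 and 63.7 CPM in Tcn2-/- IMQ libraries against 78.5, 73.1, 88.6, 109 and 73.9 CPM in IMQ libraries and 23.9, 131 and 121 CPM in control libraries. Every Tcn2-/- IMQ library was below every IMQ library and below control replicates 2 and 3, and control replicate 1 lay below 3 of the 4. The log2 change was −1.13 in Tcn2-/- IMQ against IMQ (SE 0.454, 95% interval −2.12 to −0.14, unadjusted p = 0.0288, adjusted p = 0.362, edgeR). Against control the Tcn2-/- IMQ change was −1.25 (SE 0.501, −2.35 to −0.16, unadjusted p = 0.0279, adjusted p = 0.302). With control replicate 1 left out, the difference from control passed the threshold (−1.71, adjusted p = 0.0394 by edgeR), and with control replicate 1 and Tcn2-/- IMQ replicate 2 both left out it did so too (−1.47, adjusted p = 0.0285). With those libraries out, the change in Tcn2-/- IMQ against IMQ was −0.89 (adjusted p = 0.18). With sex as a covariate the difference from control was −0.33 (adjusted p = 0.954). Control replicates 2 and 3, the female ones, were the high controls. The only male control was replicate 1, so sex and the low position of that library cannot be told apart. Il6ra differed in IMQ against control by −0.13 (95% interval −1.17 to 0.92, adjusted p = 0.921).

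Il6st (chromosome 13, 112600604 to 112646620, plus strand) encodes gp130, the chain that the receptors for IL-6, oncostatin M and leukaemia inhibitory factor share. It had 258, 151, 423 and 508 CPM in Tcn2-/- IMQ libraries against 200.4, 218, 512, 558 and 477 CPM in IMQ libraries and 93.6, 286 and 317 CPM in control libraries. The spread within groups was wider than the distance between them. The log2 change was −0.23 in Tcn2-/- IMQ against IMQ (95% interval −1.23 to 0.77, adjusted p = 0.867, edgeR) and 0.76 in IMQ against control (−0.36 to 1.88, adjusted p = 0.504).

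Ratios of counts within a library do not depend on its total. Il6ra counts per Il6st count were 0.129, 0.115, 0.0951 and 0.125 in Tcn2-/- IMQ libraries against 0.392, 0.335, 0.173, 0.195 and 0.155 in IMQ libraries and 0.256, 0.460 and 0.382 in control libraries. Every Tcn2-/- IMQ library was below every other library, including control replicate 1, and the 4 values lay close together (0.116 ± 0.0153, SD, n = 4, against 0.250 ± 0.106, n = 5, in IMQ and 0.366 ± 0.103, n = 3, in control skin). The ratios were chosen after the levels of their genes were known and are given as a description, with no test.

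**Figure D3:**
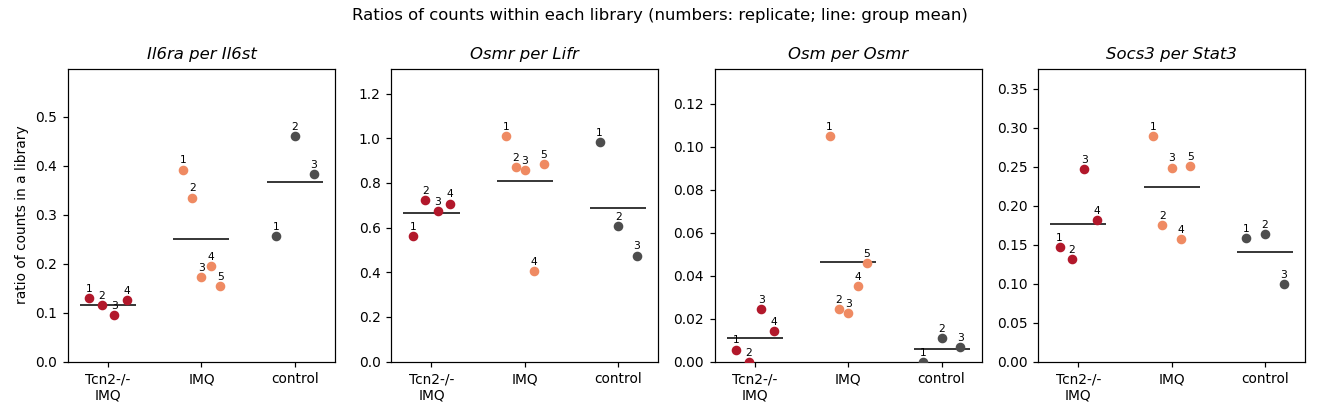
Ratio of the counts of a pair of genes within each library (vertical axis, no unit, starting at 0), by group, with points numbered by replicate and a line at the group mean. Il6ra per Il6st lies between 0.0951 and 0.129 in the 4 Tcn2-/- IMQ libraries, below all others, while the other ratios overlap between Tcn2-/- IMQ and IMQ skin.

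Osmr and Lifr encode the partner chains for oncostatin M and leukaemia inhibitory factor. They are neighbours on chromosome 15 (Osmr at 6843058 to 6904450, minus strand, and Lifr at 7120095 to 7226970, plus strand), with a gap of 215.6 kb. Osmr had 63.6, 55.8, 67.9 and 123 CPM in Tcn2-/- IMQ libraries against 112, 84.3, 108, 65.9 and 102 CPM in IMQ libraries and 45.7, 91.7 and 84.4 CPM in control libraries. The highest Osmr library of all was Tcn2-/- IMQ replicate 4, and the groups overlapped. Lifr had 77.2 to 173 CPM in Tcn2-/- IMQ libraries against 96.6 to 162 CPM in IMQ libraries and 46.4 to 178 CPM in control libraries. The log2 changes in Tcn2-/- IMQ against IMQ were −0.28 for Osmr (95% interval −0.89 to 0.32, adjusted p = 0.712, edgeR) and −0.07 for Lifr (−0.83 to 0.68, adjusted p = 0.95). Against control the IMQ values were 0.35 for Osmr (−0.31 to 1.01, adjusted p = 0.605) and −0.03 for Lifr (−0.86 to 0.79, adjusted p = 0.973). Osmr counts per Lifr count were 0.562 to 0.723 in Tcn2-/- IMQ, 0.407 to 1.01 in IMQ and 0.475 to 0.985 in control libraries.

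Of the kinases, Jak2 (chromosome 19, 29229228 to 29290480, plus strand) had the smallest p of the 10 genes in Tcn2-/- IMQ against IMQ. It had 65.4, 58.7, 53.3 and 66.3 CPM in Tcn2-/- IMQ libraries against 86.3, 75.1, 118, 86.1 and 99.0 CPM in IMQ libraries and 61.4, 97.7 and 109.6 CPM in control libraries. The Tcn2-/- IMQ libraries lay within a narrow band below all IMQ libraries and below control replicates 2 and 3. The log2 change was −0.61 in Tcn2-/- IMQ against IMQ, or 1.53-fold lower (SE 0.190, 95% interval −1.02 to −0.19, unadjusted p = 0.00764, adjusted p = 0.243, edgeR). It was −0.56 in Tcn2-/- IMQ against control (SE 0.213, −1.02 to −0.09, unadjusted p = 0.0227, adjusted p = 0.272). Without control replicate 1 and Tcn2-/- IMQ replicate 2 these changes were −0.59 (adjusted p = 0.222) and −0.75 (adjusted p = 0.0931). Jak2 differed in IMQ against control by 0.05 (−0.39 to 0.50, adjusted p = 0.923). Jak1 (chromosome 4, 101009564 to 101122479, minus strand), the kinase that gp130 signalling depends on most, had 197, 127, 278 and 328 CPM in Tcn2-/- IMQ libraries against 301, 234, 331, 337 and 292 CPM in IMQ libraries and 119, 240 and 287 CPM in control libraries. The groups overlapped, with log2 changes of −0.36 in Tcn2-/- IMQ against IMQ (−1.02 to 0.29, adjusted p = 0.657) and 0.47 in IMQ against control (−0.25 to 1.19, adjusted p = 0.519).

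For the genes not given above, the log2 change in Tcn2-/- IMQ against control was 0.84 for Osm, 0.53 for Il6st, 0.11 for Jak1, 0.07 for Osmr and −0.11 for Lifr, with adjusted p from 0.757 to 0.957 (edgeR) and overlapping libraries for each.

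Stat3 (chromosome 11, 100775924 to 100830366, minus strand) encodes the transcription factor that the series title names. It had 175, 106, 186 and 224 CPM in Tcn2-/- IMQ libraries against 283, 224, 262, 219 and 252 CPM in IMQ libraries and 137, 225 and 211 CPM in control libraries. Tcn2-/- IMQ replicate 4 lay between IMQ replicates 2 and 4, and the other 3 were below every IMQ library. The log2 change in Tcn2-/- IMQ against IMQ was −0.52, or 1.44-fold lower (SE 0.223, 95% interval −1.01 to −0.04, unadjusted p = 0.0369, adjusted p = 0.385, edgeR). Without Tcn2-/- IMQ replicate 2 and control replicate 1 it was −0.35 (adjusted p = 0.41). Against control the Stat3 change was −0.15 in Tcn2-/- IMQ skin (−0.69 to 0.40, adjusted p = 0.876) and 0.38 in IMQ skin (−0.15 to 0.91, adjusted p = 0.481).

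Socs3 (chromosome 11, 117856905 to 117860873, minus strand), the feedback inhibitor and a standard transcript readout of STAT3 activity, had 25.6, 13.9, 46.1 and 40.5 CPM in Tcn2-/- IMQ libraries against 81.8, 39.3, 65.2, 34.6 and 63.1 CPM in IMQ libraries and 21.7, 36.8 and 20.9 CPM in control libraries. IMQ replicates 1, 3 and 5 were above every other library, while IMQ replicates 2 and 4 lay within the range of the Tcn2-/- IMQ group. The log2 change in Tcn2-/- IMQ against IMQ was −0.85, or 1.80-fold lower (SE 0.366, 95% interval −1.65 to −0.05, unadjusted p = 0.0389, adjusted p = 0.393, edgeR). Against control the change in IMQ skin was 1.10, or 2.14-fold higher (SE 0.408, 0.21 to 1.99, unadjusted p = 0.0196, adjusted p = 0.225). Against control the change in Tcn2-/- IMQ skin was 0.25 (−0.65 to 1.15, adjusted p = 0.868). Without Tcn2-/- IMQ replicate 2 and control replicate 1 the first change was −0.60 (adjusted p = 0.536). In the fit with muscle score the Socs3 change was −0.27 in Tcn2-/- IMQ against IMQ (adjusted p = 0.945) and 0.65 in IMQ against control (adjusted p = 0.729). Socs3 counts per Stat3 count were 0.146, 0.132, 0.247 and 0.181 in Tcn2-/- IMQ libraries, 0.289, 0.175, 0.249, 0.158 and 0.251 in IMQ libraries and 0.158, 0.164 and 0.0990 in control libraries, and these ranges overlapped.

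STAT3 binds DNA at the palindrome TTCNNNGAA, which reads the same on both strands. In the 250 bases before the RefSeq start of transcription, for which 9 of the 10 genes had 10 windows (2 of them for Lifr), the Socs3 window held 1 match and the others 0. The stricter form TTCCNGGAA, which is contained in the first, was in none of the 10. Among all 32851 windows of this length TTCNNNGAA was in 2306 (7.02%) and TTCCNGGAA in 300 (0.91%). The Socs3 and Stat3 windows are printed here because Socs3 is the readout and Stat3 the factor, as RefSeq sequence of the older build GRCm38.p6 (Socs3 at chr11:117969367-117969616 and Stat3 at chr11:100939541-100939790, both on the minus strand, each ending next to the start site). Capitals mark the match, which begins 154 bases before the start of Socs3. A match describes letters and not binding.
Socs3: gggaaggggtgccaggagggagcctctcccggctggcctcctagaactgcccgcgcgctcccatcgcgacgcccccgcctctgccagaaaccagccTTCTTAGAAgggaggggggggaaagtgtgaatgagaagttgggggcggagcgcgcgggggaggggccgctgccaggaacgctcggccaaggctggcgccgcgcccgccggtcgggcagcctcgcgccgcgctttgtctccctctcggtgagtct
Stat3: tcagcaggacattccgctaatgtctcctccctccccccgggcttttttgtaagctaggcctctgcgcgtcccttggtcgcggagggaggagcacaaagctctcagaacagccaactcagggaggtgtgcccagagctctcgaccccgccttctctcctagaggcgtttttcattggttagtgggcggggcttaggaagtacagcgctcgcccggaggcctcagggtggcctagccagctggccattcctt

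**Figure D4:**
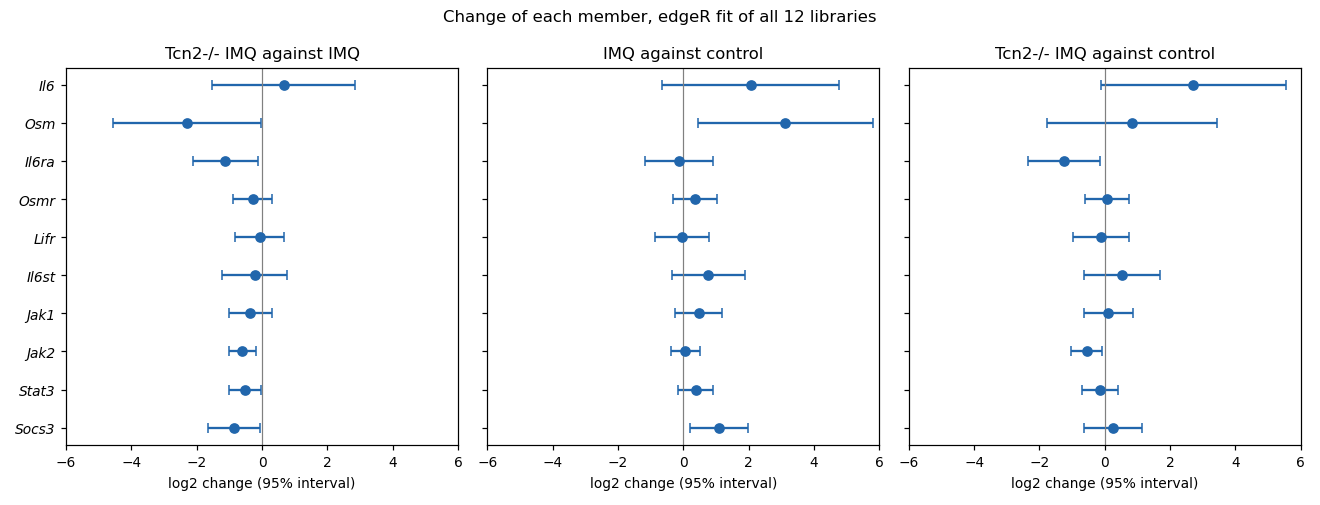
Log2 change of each gene (horizontal axis, points with 95% intervals, edgeR fit of all 12 libraries) in Tcn2-/- IMQ against IMQ, IMQ against control and Tcn2-/- IMQ against control. In the first panel 9 of 10 points are negative and the intervals of Osm, Il6ra, Jak2, Stat3 and Socs3 end below 0, and none of the 10 passes the threshold after adjustment in any panel.

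A count of 0 calls among 10 genes lies near the background of all genes. Only 5 of 18147 genes passed the threshold in Tcn2-/- IMQ against IMQ (0.0276%), and 0 of the 10, of which 5 (Stat3, Socs3, Il6ra, Osm and Jak2) had an unadjusted p below 0.05 by edgeR. Over all 18147 genes 2146 had an unadjusted p below 0.05. Of the 10, 3 were lower in every Tcn2-/- IMQ library, where 3.18% of all genes were, and 0 were higher in every library, where 1.71% were. Between IMQ and control skin 1.23% of genes passed and 0 of the 10, with 2 (Socs3 and Osm) at an unadjusted p below 0.05, against 2830 of all 18147 genes. Of the 10, 1 was higher in every IMQ library (6.79% of all genes) and 0 were lower in every one (7.40%). Between Tcn2-/- IMQ and control skin 1.31% of genes passed and 0 of the 10. Of the 10, 2 (Il6ra and Jak2) had an unadjusted p below 0.05, against 2315 of all 18147 genes. None of the 10 was free of overlap there, where 4.67% of all genes were higher and 5.90% lower in every Tcn2-/- IMQ library. DESeq2 also called 0 of the 10 in each comparison, where it called 2.76%, 4.91% and 4.72% of all genes. Each pair of comparisons shares 1 group of libraries, so they are not independent. In simulated counts of the same size 66% of genes changed 4-fold and 14% of genes changed 2-fold were recovered in Tcn2-/- IMQ against IMQ. The differences of Stat3, Jak2 and Socs3 were smaller than 2-fold there. Those of Il6ra (2.19-fold) and Osm (4.88-fold) were larger and did not pass the threshold either. Without control replicate 1 and Tcn2-/- IMQ replicate 2 the number of negative changes among the 10 was 7 in Tcn2-/- IMQ against IMQ, 3 in IMQ against control and 5 in Tcn2-/- IMQ against control.

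The remaining genes of the pathway were taken from 8 lists with 82 genes, of which 80 were found and 74 passed the filter. Il31 and Reg3b were not found by symbol in the count table. Of the 74, 0 passed the threshold in Tcn2-/- IMQ against IMQ (edgeR, 18 at an unadjusted p below 0.05), 56 had a negative change and the median was −0.35. Of all 18147 genes, 2146 had an unadjusted p below 0.05 there and 49.2% had a negative change. DESeq2 called 4, Ptpn6, Il19, Saa2 and Lcn2, of 77 list genes it gave an adjusted p (5.19%), against 2.76% of all genes, and these were chosen for mention by that count. For IMQ against control 1 passed, downwards, with 22 negative changes (50.4% of all genes were negative) and a median of 0.34. For Tcn2-/- IMQ against control 1 passed, upwards, with 39 negative changes (49.0% of all genes were negative) and a median of −0.04. Without control replicate 1 and Tcn2-/- IMQ replicate 2 the negative changes in Tcn2-/- IMQ against IMQ numbered 51 of 75, with a median of −0.25. In the fit with muscle score they numbered 40 of 74, with a median of −0.08.

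**Figure D5:**
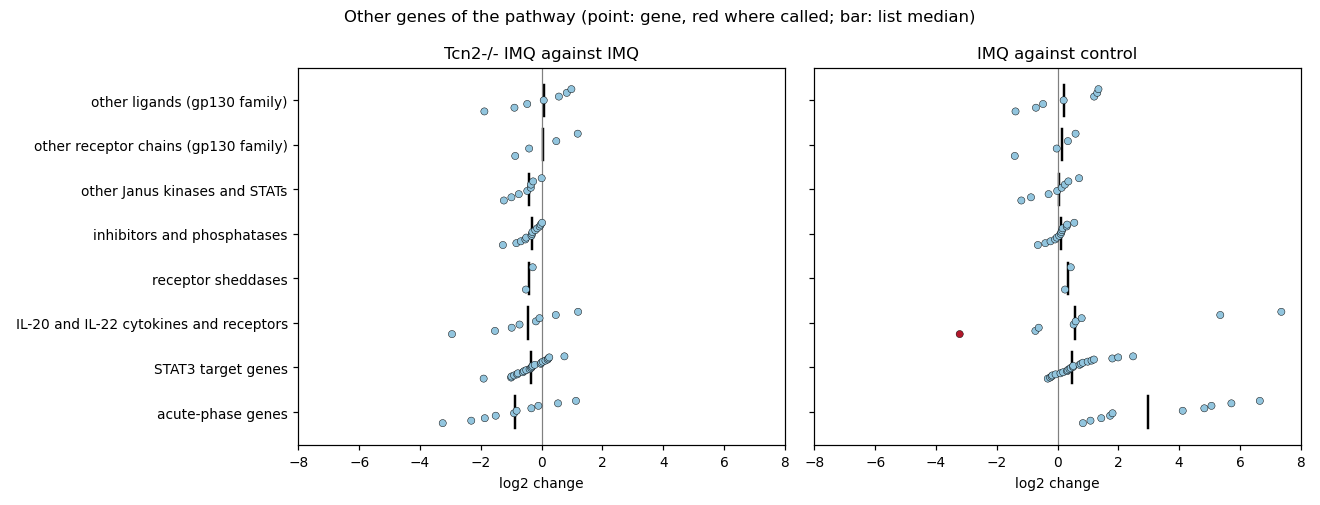
Log2 change (horizontal axis) of the tested genes of 8 pathway lists (rows) in Tcn2-/- IMQ against IMQ (left) and IMQ against control (right), with 1 point per gene, red where the gene passed the threshold, and a bar at the list median. The acute-phase list has a median of −0.87 on the left and 2.96 on the right, and the only red point is Il20ra on the right.

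Among 7 other genes of the gp130 ligand list tested, 3 were negative in Tcn2-/- IMQ against IMQ and none passed. Ebi3, a subunit of interleukin-27, had 2.85, 0.77, 4.27 and 3.27 CPM in Tcn2-/- IMQ libraries against 4.55, 6.70, 8.36, 24.7 and 7.32 CPM in IMQ libraries, with the log2 change at −1.88 (edgeR, adjusted p = 0.324, SE 0.697). Ebi3 was thus lower in all 4 Tcn2-/- IMQ libraries than in any IMQ library. Of 4 other receptor chains 2 were negative. Il31ra, the chain that binds interleukin-31, had 12.2 ± 7.62 CPM in Tcn2-/- IMQ skin (SD, n = 4) and 5.38 ± 2.66 CPM in IMQ skin (n = 5), a change of 1.19 (adjusted p = 0.481, edgeR). Il11ra1, which binds interleukin-11, had 120.1 ± 17 CPM in Tcn2-/- IMQ skin and 86.1 ± 30.7 CPM in IMQ skin, a change of 0.48 (adjusted p = 0.496). These 2 chains had positive changes where Il6ra had a negative one.

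Among 8 other Janus kinase and STAT genes 7 had a negative change in Tcn2-/- IMQ against IMQ (median −0.42). Stat4, a STAT of T cells and natural killer cells, had 0.605 ± 0.499 CPM in Tcn2-/- IMQ and 1.44 ± 0.424 CPM in IMQ skin (change −1.24, adjusted p = 0.47, edgeR). Among 13 inhibitors and phosphatases 12 had a negative change (median −0.32). Ptpn6, the leukocyte phosphatase SHP-1, had 20.6, 13.9, 29.4 and 22.6 CPM in Tcn2-/- IMQ libraries against 30.6, 55.2, 44.2, 71.9 and 60.2 CPM in IMQ libraries and 21.6, 69.6 and 53.0 CPM in control libraries. Its change in Tcn2-/- IMQ against IMQ was −1.28 (SE 0.352, unadjusted p = 0.00354, adjusted p = 0.187) without overlap. Ptpn1, a broadly expressed phosphatase that acts on JAK2, had 74.9, 51.8, 106 and 101 CPM against 142, 145, 132, 110.5 and 141 CPM in IMQ libraries (change −0.68, SE 0.212, adjusted p = 0.238), also without overlap. Negative changes thus lay on the side of inhibitors as well as kinases. The part of leukocyte content was not tested for Ptpn6 and Stat4.

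Adam10 and Adam17 encode proteases that release soluble forms of the IL-6 receptor. Adam10 had 101, 127, 142 and 159 CPM in Tcn2-/- IMQ libraries against 184, 163, 214, 211 and 176 CPM in IMQ libraries, without overlap (change −0.52, SE 0.166, adjusted p = 0.253, edgeR). Adam17 had 63.1 to 154 CPM against 121 to 136 CPM, with overlap (change −0.30, adjusted p = 0.68).

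The interleukin-20 and interleukin-22 branch also signals through STAT3 in keratinocytes. Of its 8 tested genes Il20ra, a receptor chain for interleukins 19, 20 and 24, fell in IMQ against control skin. It had 0.466, 2.47, 0.666, 4.37 and 1.20 CPM in IMQ libraries against 18.0, 18.6 and 14.8 CPM in control libraries, with a log2 change of −3.22 (95% interval −4.67 to −1.77, SE 0.665, adjusted p = 0.0414 by edgeR). Tcn2-/- IMQ libraries lay between these at 5.29, 5.18, 1.05 and 5.31 CPM, which overlapped IMQ skin and not control skin (change from control −2.02, adjusted p = 0.203). The call in IMQ against control was lost with any 1 control library left out (adjusted p = 0.0876, 0.167 and 0.149 for replicates 1, 2 and 3) and without IMQ replicate 1, 3 or 5 (0.068, 0.0907 and 0.104). Fits with sex (0.0607) or with muscle content (−2.30, adjusted p = 0.477) as a covariate lost it too. So did the replicate number as a block (0.0869) and leaving out control replicate 1 and Tcn2-/- IMQ replicate 2 together (0.0878). The ligand gene Il19 had 0.238, 0.357, 0.68 and 2.80 CPM in Tcn2-/- IMQ libraries against 18.3, 1.17, 10.5, 2.12 and 7.62 CPM in IMQ libraries and 0, 0.449 and 0.114 CPM in control libraries. Its changes were −2.95 in Tcn2-/- IMQ against IMQ (SE 0.999, adjusted p = 0.282) and 5.35 in IMQ against control (SE 1.34, adjusted p = 0.0797). The highest library was IMQ replicate 1, as for Osm. Il10ra, the interleukin-10 receptor chain of leukocytes, had 14.5 ± 9.72 CPM in Tcn2-/- IMQ and 42.1 ± 15.6 CPM in IMQ skin (change −1.54, adjusted p = 0.379).

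Genes that STAT3 is known to induce numbered 22, and 16 had a negative change in Tcn2-/- IMQ against IMQ (median −0.34) while 17 had a positive one in IMQ against control (median 0.47). None passed the threshold in any comparison by edgeR. Fos, an immediate early gene that many signals induce, had 16.6, 36.7, 85.1 and 47.4 CPM in Tcn2-/- IMQ libraries against 390, 157, 178, 51.7 and 94.8 CPM in IMQ libraries (change −1.91, SE 0.678, adjusted p = 0.3). Tnfaip3, which encodes the NF-κB inhibitor A20, had 16.1, 8.64, 14.2 and 24.9 CPM against 45.4, 28.8, 40.2, 24.99 and 19.7 CPM in IMQ libraries (change −0.99, SE 0.365, adjusted p = 0.32).

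Of 10 acute-phase genes, a class that IL-6 induces in liver, all 10 had a positive change in IMQ against control skin (median 2.96) and none passed the threshold by edgeR. Of the same 10, 8 were negative in Tcn2-/- IMQ against IMQ (median −0.87). Saa3, the serum amyloid A gene expressed outside the liver, had 16.5, 11.97, 997 and 485 CPM in Tcn2-/- IMQ libraries against 150, 62.4, 203, 165 and 284 CPM in IMQ libraries and 0.66, 1.29 and 3.18 CPM in control libraries. Saa3 rose in Tcn2-/- IMQ against control (log2 change 7.78, SE 1.65, 95% interval 4.18 to 11.4, adjusted p = 0.0446 by edgeR), with every Tcn2-/- IMQ library above every control library. The call was lost without any 1 control library (adjusted p = 0.0837, 0.217 and 0.167 for replicates 1, 2 and 3) and without Tcn2-/- IMQ replicate 3 or 4 (0.0974 and 0.101), and also in a fit of those groups alone (0.133). Fits with sex as a covariate (adjusted p = 0.1645, edgeR) or with the replicate number as a block (0.1667) lost the Saa3 call too. Against IMQ skin its change was 1.13 (SE 1.01, adjusted p = 0.685), and replicates 3 and 4 were the high libraries, as for Il6. Saa2 had 0, 2, 8 and 13 counts in Tcn2-/- IMQ libraries against 26, 4, 86, 39 and 123 in IMQ libraries (change −3.26, SE 1.08, adjusted p = 0.272). Saa1 and Saa2 are near-identical copies, so the split of reads between them is uncertain. Lcn2, made by neutrophils and inflamed keratinocytes, had 20.3, 37.6, 73.9 and 92.4 CPM in Tcn2-/- IMQ libraries against 819, 304, 63.3, 73.1 and 138 CPM in IMQ libraries (change −2.32, SE 0.76, adjusted p = 0.262). IMQ replicates 1, 2 and 5 were above every Tcn2-/- IMQ library, and the neutrophil marker sums of replicates 1 and 2 were the highest of all.

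Across the 12 libraries, with each group's mean taken off the log2 CPM, the 10 genes varied together to different degrees. Pearson's r was 0.809 between Stat3 and Socs3, 0.925 between Stat3 and Osm, 0.876 between Socs3 and Il6, 0.961 between Il6ra and Lifr and 0.932 between Il6ra and Jak1. Jak2 had its largest r with Lifr (0.76) and 0.158 with Il6. Among the other tested genes, predicted gene models left out, those most like Stat3 were Fbxw2 (r = 0.983, Spearman's rho = 0.979), Tnfrsf23 (0.96 and 0.951) and Aff4 (0.959 and 0.916). Those most like Socs3 were Maff (0.947 and 0.944), Nell1 (0.933 and 0.867) and Tnfsf11 (0.93 and 0.909). Those most like Osm were Sptlc2 (0.968 and 0.937), Mmp8 (0.958 and 0.979) and Trex2 (0.956 and 0.895). These values describe 12 libraries that share depth, composition and the low position of Tcn2-/- IMQ replicate 2 and control replicate 1, and carry no test.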

How the data were processed

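Each deposited value is the raw count of a gene in a library, a whole number with no scaling, for 12 mouse skin libraries. Per the labels' protocols, mRNA was captured on oligo(dT) beads, fragmented and primed with random hexamers. The build was GRCm39, per the submitters' processing notes, and coordinates were read from the deposited count table. The sources used here name no aligner, counter, annotation or strand setting, so a gene and its antisense partner cannot be told apart.

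Groups came from the sample titles, with 0 columns left unmapped. In edgeR 4.0.16 (R 4.3.3) filterByExpr kept 18147 of 33539 genes, TMM factors ran from 0.927 to 1.12, and 1 quasi-likelihood model with a mean per group was fitted to all 12 libraries (common biological coefficient of variation 0.463). Tests were 2-sided, and called means an adjusted p below 0.05. SE is the change divided by the root of F. Intervals are 95%. CPM uses TMM-scaled totals, and log2 CPM a prior count of 2. Counting limits cover counting error only. Levels per length used exon lengths of GENCODE M21 (GRCm38) by gene ID. Promoter windows are RefSeq's of GRCm38.p6. Figures were drawn with matplotlib 3.10.9.

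The 10 genes and all lists were chosen with earlier results of these data known. The text names the 10 genes, Tcn2, sex genes, called genes of each list (up to 4), otherwise the 2 with the smallest p in Tcn2-/- IMQ against IMQ, and the 3 genes most like Stat3, Socs3 and Osm. Some genes this rule selects are not reported here. Alternatives were DESeq2 1.42.0, RLE factors, no filter, only the groups compared, the replicate number as a block, sex or a score of 27 muscle genes as a covariate, and leaving out libraries. The fit was tested on simulated counts of 18147 genes. In IMQ against control 12% of genes changed 2-fold and 58% of genes changed 4-fold were recovered, and 20% and 60% in Tcn2-/- IMQ against control.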

Additional observations from a re-analysis of the deposited data

Results flagged for a closer look

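Osm in IMQ replicate 1, at 11.7 CPM, lay far above the other 4 IMQ libraries, of which the next was at 4.68 CPM. The gap between them was 0.728 of the whole range of the group, above the critical value of 0.71 for 5 libraries. Among 20 groups examined this way, chance flags about 1. The same library was highest for Socs3, for Stat3, for Il19 and for the sum of 16 neutrophil markers. It was also the only IMQ library with high Xist (18572 counts, against 0 to 8 in the other IMQ libraries).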

How the results depend on the processing

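Counts are given for Tcn2-/- IMQ against IMQ, then IMQ against control, then Tcn2-/- IMQ against control. The number of genes called was 5, 223 and 238 and that of pathway genes 0, 1 and 1 (edgeR). DESeq2 called 586, 1072 and 1031 genes and 4, 10 and 5 pathway genes. RLE factors gave 5, 220 and 233 genes. With no filter on low counts the numbers were 17, 224 and 280 genes and 0, 3 and 2 pathway genes. A fit of only the groups compared gave 42, 541 and 102 genes and 0, 5 and 1 pathway genes. Sex as a covariate gave 6, 143 and 27 genes and 0, 1 and 0 pathway genes, and the muscle score 0, 25 and 233 genes and 0, 0 and 1 pathway genes. Without Tcn2-/- IMQ replicate 2 and control replicate 1 together, 51, 213 and 396 genes and 0, 0 and 1 pathway genes were called, and 0, 0 and 1 of the 10 genes, Il6ra. Leaving out 1 library at a time gave 1 to 5, 8 to 397 and 3 to 428 genes, 0, 0 to 6 and 0 to 2 pathway genes, and 0, 0 and 0 to 1 of the 10 genes. The fewest genes were called without Tcn2-/- IMQ replicate 1 in the first comparison and without control replicate 3 in the others. Fewer libraries or genes enter some of these fits, and otherwise the cause was not tested.

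The replicate number as a block gave 0, 46 and 20 genes called and 0 pathway genes in each. Same-numbered libraries showed no clear tendency to deviate together (10 pairs, r −0.531 to 0.419, mean 0.0698, against a mean of −0.0109 for other numbers). So few pairs cannot exclude that the numbers pair libraries. Under the block the log2 change turned to −0.0399 for Il6 in Tcn2-/- IMQ against IMQ, and to −0.0204 for Osmr and −0.0455 for Jak1 in Tcn2-/- IMQ against control.

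The direction of changes close to 0 was not stable. With sex as a covariate it turned for Lifr in Tcn2-/- IMQ against IMQ (0.0387), for Il6ra (0.65) and Lifr (0.49) in IMQ against control, and for Stat3 (0.17) and Lifr (0.53) in Tcn2-/- IMQ against control. That fit cannot separate sex from control replicate 1 and IMQ replicate 1. With the muscle score it turned for Osmr in Tcn2-/- IMQ against IMQ (0.0365) and for Lifr in IMQ against control (0.0375). Without the 2 libraries that stood apart it turned for Il6st (0.0131) and Lifr (0.0804) in Tcn2-/- IMQ against IMQ, for Jak2 in IMQ against control (−0.16) and for Osmr in Tcn2-/- IMQ against control (−0.0549). With 1 library left out, Tcn2-/- IMQ against IMQ ran from −0.50 to 0.0128 for Il6st and from −0.33 to 0.0804 for Lifr. IMQ against control ran from −0.58 to 0.21 for Il6ra, −0.43 to 0.31 for Lifr and −0.16 to 0.23 for Jak2. Tcn2-/- IMQ against control ran from −0.34 to 0.028 for Stat3, −0.24 to 0.26 for Osmr, −0.50 to 0.24 for Lifr and −0.18 to 0.37 for Jak1. The directions of Stat3, Socs3, Il6ra, Osm, Jak1 and Jak2 in Tcn2-/- IMQ against IMQ and of Stat3, Socs3, Il6, Osm, Osmr, Il6st and Jak1 in IMQ against control held under every alternative run. In size, the muscle score moved Jak1 in Tcn2-/- IMQ against IMQ to −0.14 and, in IMQ against control, Il6 to 0.67, Osmr to 0.12 and Jak1 to 0.31, and sex moved Osmr to 0.69, Jak1 to 0.80 and Stat3 to 0.61 there. The adjusted p of Stat3 in Tcn2-/- IMQ against IMQ ran from 0.286 to 0.898 and that of Socs3 from 0.284 to 0.945. Tcn2 missed the threshold in Tcn2-/- IMQ against IMQ under 4 of 17 alternatives. Il6 and Osm rest on 0 to 201 counts per library, so depth limits them more than the other 8 genes.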
